A study of Mus musculus with 9 samples.

Results

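Cohesin is the protein ring that holds sister chromatids together, and the 10 genes described here encode its subunits, one of its protectors and the protease that opens it. They are the ring genes Smc1a, Smc1b and Smc3, the ring-closing kleisin genes Rec8 and Rad21, the STAG subunit genes Stag1, Stag2 and Stag3, the shugoshin gene Sgo1 and the separase gene Espl1. They were chosen by gene symbol, as the probe sets annotated to exactly 1 of these genes, out of 19938 genes so represented on the arrays. Each of the 10 genes had 1 such probe set, and 0 probe sets named a member together with another gene. All 10 passed the filter on low signal, which left 17324 genes for testing.

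RNA was measured in mouse oocytes of strain C57BL/6 at metaphase II, the stage at which the ovulated egg waits for fertilization. The 3 genotypes were Dicer knockout, Dgcr8 knockout and wild-type, with 3 biological replicates of each and 9 arrays in all. Ovulation was induced in every genotype with 2 hormones at 7.5 IU each, pregnant mare serum gonadotropin and then human chorionic gonadotropin (hCG), and eggs were collected 16 h after hCG and freed of cumulus cells. The sources used here do not say how the knockouts were made or how old the females were. Nor do they say how many females or eggs went into an array. The p-values therefore weigh genotype differences against the spread within genotypes among these 9 samples only.

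In meiosis, some cohesin subunits are replaced by germ-cell forms: Smc1b stands beside Smc1a, Rec8 beside Rad21, and Stag3 beside Stag1 and Stag2. In female mice, cohesin loaded before birth keeps chromosomes joined until ovulation, when separase cuts the kleisin along the arms and shugoshins, with the phosphatase PP2A, shield it at centromeres until fertilization. Dgcr8 is the partner of Drosha in making microRNAs, whereas Dicer makes both microRNAs and the endogenous small interfering RNAs that are abundant in mouse oocytes. The design thus asks which transcripts differ when microRNAs alone, or both small RNA classes, are lost.

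All values are log2 signals per probe set, in which a difference of 1 is a 2-fold difference. The median signal of an array lay between 5.48 and 5.58. The values were normalized between arrays, so a loss shared by all transcripts would not show, and fewer molecules per egg cannot be told apart from a lower share of the egg's RNA. Each targeted gene was lower in its own knockout than in the other genotypes, Dgcr8 at 10.6% of wild-type and Dicer1 at 51.7%, so that much of the Dicer1 signal remained. Whether these probe sets lie in the deleted parts is not stated in the sources used here. Dicer1 averaged 10.72 ± 0.13 in Dicer knockout, 11.68 ± 0.06 in Dgcr8 knockout and 11.67 ± 0.01 in wild-type oocytes, and Dgcr8 averaged 8.46 ± 0.23, 5.71 ± 0.26 and 8.96 ± 0.10 in the same order (SD, n = 3 each). The 10 egg markers, such as Gdf9, had a median signal of 11.82, against 4.88 for the 11 measured cumulus and granulosa markers, of which 9 were tested and 0 passed in each comparison. Of the 10 egg markers, 1 was called higher in Dicer knockout than in wild-type oocytes, where 4.87% of all genes tested were. Against Dgcr8 knockout oocytes 2 were called higher, where 5.48% of all genes were. For 5 of the 10 every Dicer knockout array lay above every wild-type array, as it did for 10% of all genes. Zp2, a zona pellucida gene, averaged 11.78 in Dicer knockout, 11.31 in Dgcr8 knockout and 11.38 in wild-type oocytes. The summed signal of 4 immune and blood markers was 7.59 to 8.26 in Dicer knockout, 7.18 to 7.42 in Dgcr8 knockout and 7.004 to 7.46 in wild-type oocytes. Of its 3 tested genes 1 rose in Dicer knockout oocytes, the macrophage lysosome gene Cd68, which averaged 7.40 in Dicer knockout, 6.72 in Dgcr8 knockout and 6.44 in wild-type oocytes. The defining leukocyte marker Ptprc averaged 4.81 in Dicer knockout, 4.86 in Dgcr8 knockout and 4.85 in wild-type oocytes. Lyz2, a lysozyme gene of macrophages, was at 6.13 in Dicer knockout replicate 3 and between 3.68 and 4.16 in the other 8 arrays. The calls of Stag2 and Sgo1 against wild-type, given next, held without that array, and the part of these marker differences in the other results was not tested.

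In Dicer knockout oocytes, 2 of the 10 genes fell relative to wild-type, 0 rose and 8 did not pass the test. Stag2 was the large change, to 47.0% of the wild-type level, and Sgo1 was the small one, to 83.7%. Calls are at an adjusted p under 0.05 in a single limma fit to all 9 arrays, with Benjamini-Hochberg adjustment over all genes tested. Of all genes tested, 11.3% were called in this comparison, which splits into 6.47% called lower and 4.87% called higher, so 2 of 10 is near the background for so short a list. An unadjusted p under 0.05 was reached by 5 of the 10, and by 23.7% of all genes. The median log2 change of the 10 genes was -0.08, against -0.03 over all genes tested.

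**Figure D1:**
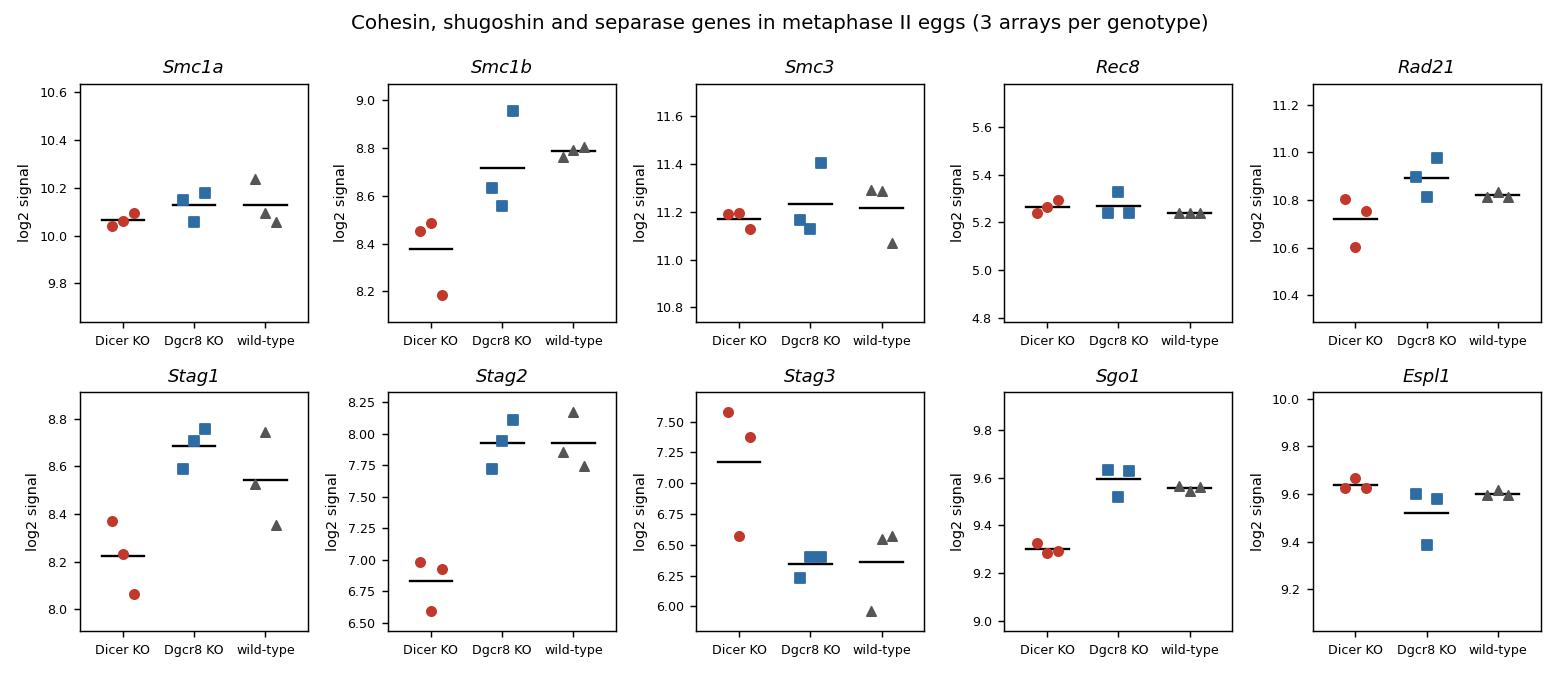
log2 signal of the 10 genes in each array, in Dicer knockout (circles), Dgcr8 knockout (squares) and wild-type oocytes (triangles), 3 arrays each, with the mean as a bar; each panel has its own vertical axis, so levels are not comparable between genes. The 3 Dicer knockout values of Stag2, from 6.59 to 6.98, lie below all 6 other values, as do those of Sgo1 in a narrower range.

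The STAG subunits bind the kleisin and help to anchor the ring on chromatin. Stag2 had signals of 6.98, 6.59 and 6.93 in the 3 Dicer knockout arrays, 7.72, 7.94 and 8.11 in the Dgcr8 knockout arrays and 7.86, 8.17 and 7.74 in the wild-type arrays. The Dicer knockout arrays did not overlap either other group, and the gap to the nearest array, Dgcr8 knockout replicate 1, was wider than the range within any genotype. The log2 change was -1.09 ± 0.15 (SE) against wild-type, with a limma adjusted p of 0.00142. Only 0.502% of all genes tested were called lower by at least 2-fold in this comparison.

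Against Dgcr8 knockout oocytes the log2 change of Stag2 was also -1.09 ± 0.15 (SE; limma adjusted p 0.00129). Between Dgcr8 knockout and wild-type oocytes it was 0.0026, with a 95% interval of -0.34 to 0.34 and a limma adjusted p of 1.0. The Stag2 calls in both comparisons with Dicer knockout oocytes held with each array left out in turn, where the log2 change against wild-type ranged from -1.18 to -0.96.

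Stag1, whose product takes the place of Stag2 in a separate population of mitotic cohesin rings, had lower values in the Dicer knockout too, but by less. Its signals were 8.37, 8.23 and 8.07 in Dicer knockout, 8.59, 8.71 and 8.75 in Dgcr8 knockout and 8.53, 8.74 and 8.35 in wild-type oocytes. The Dicer knockout arrays lay below every Dgcr8 knockout array and overlapped the wild-type arrays, since Dicer knockout replicate 1 was just above wild-type replicate 3. The log2 change against wild-type was -0.32 ± 0.12 (SE) and did not pass (limma adjusted p 0.121). Against Dgcr8 knockout oocytes Stag1 fell by 0.46 on the log2 scale (SE 0.12; limma adjusted p 0.0271), a call lost without Dicer knockout replicate 2 (0.0535) or 3 (0.0788), without Dgcr8 knockout replicate 2 (0.0790) or 3 (0.0907), with array weights (0.0623) and with arrays centred on their median (0.0506).

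Stag3, the germ-cell STAG subunit, had values on the other side. Its signals were 7.58, 6.57 and 7.37 in Dicer knockout, 6.23, 6.40 and 6.40 in Dgcr8 knockout and 5.96, 6.55 and 6.57 in wild-type oocytes. Dicer knockout replicates 1 and 3 stood above every other array, while replicate 2 was level with 2 wild-type arrays. The Dicer knockout and wild-type groups thus overlapped, whereas every Dicer knockout array lay above every Dgcr8 knockout array. The log2 change of 0.81 ± 0.25 (SE) against wild-type did not pass (limma adjusted p 0.0644), nor did that of 0.83 ± 0.25 (SE) against Dgcr8 knockout oocytes (0.0530). Without Dicer knockout replicate 2 the log2 change was 1.11 against wild-type (adjusted p 0.00472) and 1.13 against Dgcr8 knockout oocytes (0.00414), and with a floor of 6 in the signal filter both also passed (0.0396 and 0.0326). The second passed as well without wild-type replicate 1 (0.0447).

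Smc1a, Smc1b and Smc3 encode the long coiled-coil arms of the ring; Smc3 pairs with either Smc1 protein, and Smc1b is the germ-cell form. Smc1b had signals of 8.45, 8.49 and 8.18 in Dicer knockout, 8.63, 8.56 and 8.96 in Dgcr8 knockout and 8.76, 8.79 and 8.80 in wild-type oocytes. All 3 Dicer knockout values were below all 6 others, yet the Dgcr8 knockout arrays were spread widely. The log2 change against wild-type was -0.41 ± 0.12 (SE), just outside the threshold (limma adjusted p 0.0513), and against Dgcr8 knockout oocytes it was -0.34 ± 0.12 (SE; 0.0912). The first of these passed with a floor of 6 (0.0324), after quantile normalization (0.0195), with array weights (0.0346), with only the 6 arrays compared (0.0469) and without Dgcr8 knockout replicate 3 (0.0259). The second passed only after quantile normalization (0.0378).

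Smc1a and Smc3 showed no such difference. Smc1a read 10.04, 10.06 and 10.09 in Dicer knockout, 10.15, 10.06 and 10.18 in Dgcr8 knockout and 10.24, 10.09 and 10.06 in wild-type oocytes. Its log2 change in Dicer knockout against wild-type oocytes was -0.06, with a 95% interval of -0.20 to 0.07. Smc3 read 11.19, 11.19 and 11.13 in Dicer knockout, 11.16, 11.13 and 11.41 in Dgcr8 knockout and 11.29, 11.29 and 11.07 in wild-type oocytes, a log2 change of -0.05 with an interval of -0.22 to 0.13. For both genes the genotypes overlapped, and neither passed the test (limma adjusted p 0.619 and 0.816).

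Rad21 is the kleisin of mitotic cohesin and is also cut by separase. Its signals were 10.80, 10.60 and 10.75 in Dicer knockout, 10.90, 10.81 and 10.97 in Dgcr8 knockout and 10.81, 10.83 and 10.81 in wild-type oocytes. The Dicer knockout arrays were lowest, by a narrow margin, and the log2 changes of -0.10 ± 0.06 (SE) against wild-type and -0.17 ± 0.06 (SE) against Dgcr8 knockout oocytes did not pass (limma adjusted p 0.378 and 0.0887); the second passed only after quantile normalization (0.0143).

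Rec8, the meiotic kleisin whose cleavage releases chromosomes in both divisions, could not be followed on these arrays. Its signal was exactly 5.23868 in 5 arrays, including all 3 wild-type arrays, and between 5.24 and 5.33 in the other 4. A value repeated in at least 5 arrays was found for 1918 of the 35557 probe sets. The log2 change of 0.026 in Dicer knockout against wild-type oocytes (limma adjusted p 0.880) therefore says nothing of whether Rec8 RNA differed.

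**Figure D2:**
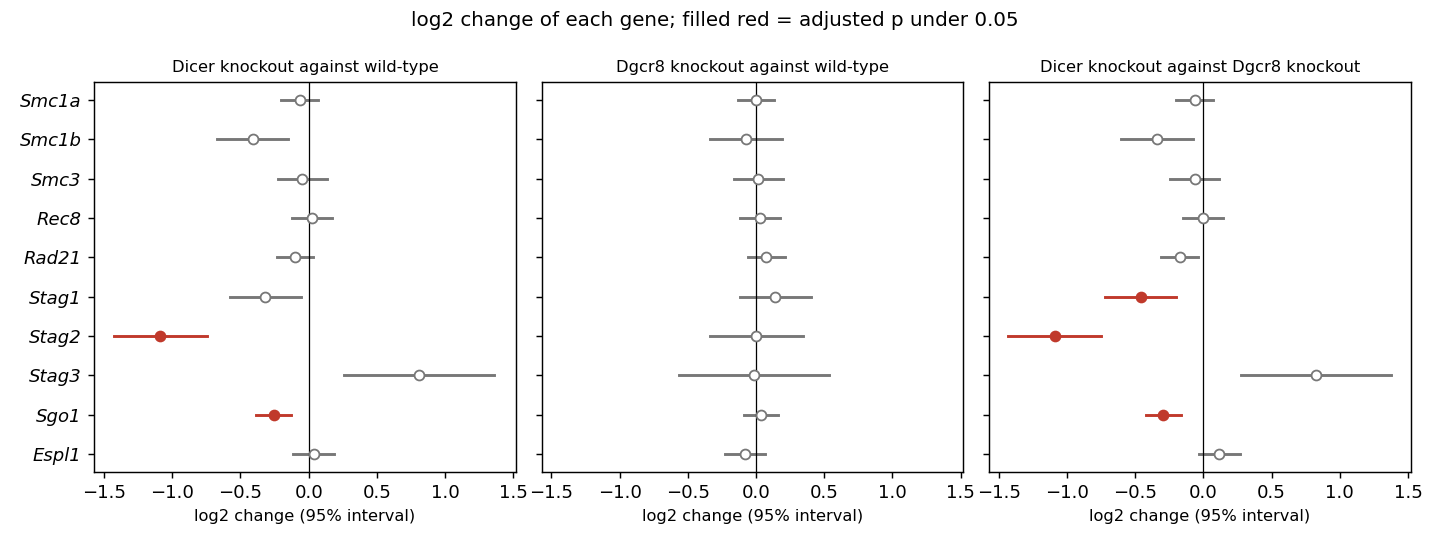
log2 change of each of the 10 genes with its 95% interval, for Dicer knockout against wild-type, Dgcr8 knockout against wild-type and Dicer knockout against Dgcr8 knockout oocytes (3 arrays per genotype); filled red points passed at an adjusted p under 0.05. Stag2 sits near -1.09 in the outer panels, and in the middle panel every interval crosses 0.

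Shugoshins recruit PP2A, which keeps the kleisin in the state that separase does not cut. Sgo1 had signals of 9.33, 9.28 and 9.29 in Dicer knockout, 9.63, 9.52 and 9.63 in Dgcr8 knockout and 9.57, 9.54 and 9.56 in wild-type oocytes. The groups were tight and the Dicer knockout arrays lay below all others. Sgo1 fell by 0.26 on the log2 scale against wild-type (SE 0.06; limma adjusted p 0.0169) and by 0.29 against Dgcr8 knockout oocytes (SE 0.06; 0.00782). With only 2 wild-type arrays the call against wild-type was lost, whichever was left out (adjusted p 0.0635 without replicate 1, 0.0559 without 2 and 0.0614 without 3), as it was with arrays centred on their median (0.0584), whereas the log2 change stayed between -0.27 and -0.25 with any array left out and the call against Dgcr8 knockout oocytes held in each of those fits.

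Espl1, separase itself, had signals of 9.63, 9.67 and 9.62 in Dicer knockout, 9.60, 9.39 and 9.58 in Dgcr8 knockout and 9.59, 9.62 and 9.59 in wild-type oocytes. The Dicer knockout arrays were marginally above the others, by a log2 change of 0.037 against wild-type with a 95% interval of -0.11 to 0.19 (limma adjusted p 0.824); after quantile normalization the sign turned. A change of Espl1 RNA by more than this interval was not seen.

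Counting groups that did not overlap, 4 of the 10 genes (Smc1b, Rad21, Stag2 and Sgo1) had every Dicer knockout array below every wild-type array, and 1 (Espl1) had every one above; over all genes tested these shares were 16.1% and 10%, or 26.2% in either direction. Against Dgcr8 knockout oocytes, 3 of 10 were called, Stag1, Stag2 and Sgo1, all lower, where 13.4% of all genes were called and 7.92% were called lower and 5.48% higher. Here the Dicer knockout arrays lay below all Dgcr8 knockout arrays for 5 of the 10 and above them for 2, against 15.9% and 10.2% of all genes, or 26.1% in either direction. Both comparisons use the same Dicer knockout arrays.

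Both knockouts were set against the same wild-type arrays. Between Dgcr8 knockout and wild-type oocytes 0 of the 10 genes passed the limma test, and 0 reached an unadjusted p under 0.05, where 0.0231% of all genes were called and 2.64% had an unadjusted p under 0.05. The log2 changes ran from -0.08 for Espl1 to 0.14 for Stag1, with a median of 0.01 against -0.0029 over all genes tested, and the groups overlapped for all 10 genes, where they did not for 6.54% of all genes. The 95% intervals were within ±0.55 of each estimate, the widest being that of Stag3. For Sgo1 the log2 change was 0.036 with an interval of -0.09 to 0.16, so a fall of the size seen in Dicer knockout oocytes lay outside it.

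Promoter sequences were at hand for 8 of the 10 genes, from 250 bases before to 50 bases after the annotated start, and are credited to RefSeq on GRCm38.p6; Rad21 and Stag2 were not matched. The windows of Sgo1 (chr17:53689266-53689565, minus strand) and Stag1 (chr9:100643198-100643497, plus strand) are shown because these genes were called lower in Dicer knockout than in Dgcr8 knockout oocytes. They read 5′ to 3′ along the gene's strand, with matches to CCAAT, the box of the factor NF-Y, or to the E-box CACGTG on either strand in capitals (a CCAAT on the other strand appears as ATTGG).
Sgo1: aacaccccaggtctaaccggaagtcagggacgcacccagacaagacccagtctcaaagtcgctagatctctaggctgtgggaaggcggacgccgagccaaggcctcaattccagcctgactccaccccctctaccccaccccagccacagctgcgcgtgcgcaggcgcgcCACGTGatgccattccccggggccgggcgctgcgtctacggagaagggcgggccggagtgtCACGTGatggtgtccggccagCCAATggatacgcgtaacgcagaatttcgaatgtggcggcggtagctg
Stag1: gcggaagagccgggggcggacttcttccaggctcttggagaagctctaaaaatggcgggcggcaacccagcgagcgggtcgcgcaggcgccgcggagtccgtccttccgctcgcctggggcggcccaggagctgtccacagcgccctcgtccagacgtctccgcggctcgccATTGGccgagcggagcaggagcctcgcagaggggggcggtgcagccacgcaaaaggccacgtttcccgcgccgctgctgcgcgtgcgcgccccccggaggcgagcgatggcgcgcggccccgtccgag

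The Sgo1 window held 2 E-boxes and 1 CCAAT box, and the Stag1 window held 1 CCAAT box and 0 E-boxes. CCAAT was in 7 of the 8 windows, all but that of Smc3, and thus also in those of the uncalled Smc1a, Smc1b, Rec8, Stag3 and Espl1. Of 32851 promoter windows of the same length, 37.4% held CCAAT and 7.15% held CACGTG on either strand. The Stag3 and Espl1 windows, whose genes did not pass, held 1 E-box each. The 8 windows held more CpG than the median window, with 18 in Rec8 at the low end and 43 in Stag1 at the high end, against 7. Of all windows, 70.3% held fewer than Rec8 and 97.4% fewer than Stag1. Searches for TTTGAA, a cell-cycle element, and TTCCCGCC, a form of the E2F site, found 1 match to the first in Espl1 and 0 matches to the second in the 8 windows, where 17.9% and 2.19% of all windows hold one; the searched motifs do not overlap one another.

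**Figure D3:**
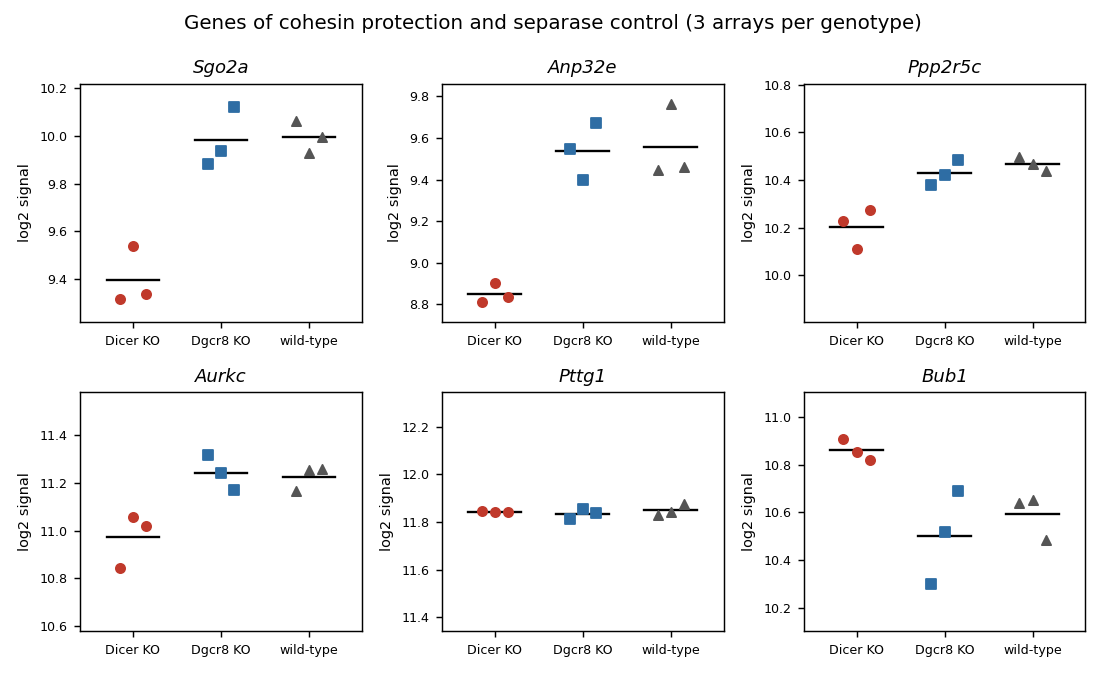
log2 signal per array of 6 genes tied to cohesin protection or separase control (3 arrays per genotype, bar = mean, own axis per gene). The genotypes are Dicer knockout, Dgcr8 knockout and wild-type oocytes. Sgo2a and Anp32e were lower in all 3 Dicer knockout arrays than in any other array, and the 9 values of Pttg1 lie between 11.81 and 11.87.

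Of 19 measured genes tied to cohesin protection or separase control, 4 fell in Dicer knockout oocytes against wild-type and 0 rose. The other 15 did not pass, and the median log2 change was -0.09. Of all genes, 6.47% were called lower and 11.3% in either direction. This list and those below were chosen with earlier results of these data known. Their shares of calls therefore describe the lists and do not test them. The list includes Anp32e, described as an inhibitor of PP2A, so its members do not all act towards protection. Sgo2a, the shugoshin that mouse oocytes need at meiosis I centromeres, had signals of 9.32, 9.54 and 9.34 in Dicer knockout, 9.88, 9.94 and 10.12 in Dgcr8 knockout and 10.06, 9.93 and 9.996 in wild-type oocytes. The Dicer knockout arrays were well clear of the rest, and Sgo2a fell to 66.1% of wild-type, by 0.60 on the log2 scale (SE 0.08; limma adjusted p 0.00138), and by 0.58 against Dgcr8 knockout oocytes (SE 0.08; 0.00145). Sgo1 and Sgo2a were thus both called lower in Dicer knockout oocytes than in either other genotype.

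Anp32e, a histone chaperone also described as an inhibitor of PP2A, had signals of 8.81, 8.90 and 8.84 in Dicer knockout, 9.55, 9.40 and 9.67 in Dgcr8 knockout and 9.44, 9.77 and 9.46 in wild-type oocytes, and fell by 0.71 against wild-type (log2, SE 0.10; limma adjusted p 0.00155). The calls of Sgo2a and Anp32e in both comparisons with Dicer knockout oocytes held with any array left out and under the other 10 settings tried. Aurkc, the germ-cell Aurora kinase of the chromosomal passenger complex, fell by 0.25 (log2, SE 0.06; limma adjusted p 0.0274), and its 4 probe sets gave log2 changes between -0.28 and -0.20; the call was lost without Dicer knockout replicate 1 (0.0723), without wild-type replicate 2 (0.0947) or 3 (0.103), with plain eBayes (0.0759) and with only the 6 arrays compared (0.0595). The fourth call, Ppp2r5c, a regulatory B56 subunit of PP2A, fell by 0.26 (log2, SE 0.06; limma adjusted p 0.0125), but its 4 probe sets disagreed, with log2 changes from -0.26 to 0.12, and their mean did not pass (-0.12, adjusted p 0.255). It was also lost without wild-type replicate 1 (0.0544).

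Pttg1, the securin that holds separase inactive, had a log2 change of -0.0065 in Dicer knockout against wild-type oocytes, with a 95% interval of -0.07 to 0.06 (limma adjusted p 0.939). Against Dgcr8 knockout oocytes, 6 of the 19 genes were called, 5 lower and 1 higher, where 7.92% of all genes were called lower and 5.48% higher. Beside the 4 genes above these were Ppp2r5d, another B56 subunit, with a log2 change of -0.34 (limma adjusted p 0.0225), and the checkpoint kinase gene Bub1, whose product marks centromeres for shugoshin, with one of 0.36 (0.0255); both were named after their values were seen, and neither passed against wild-type (0.0736 and 0.0886). The calls of Aurkc and Ppp2r5c against Dgcr8 knockout oocytes were fragile as well. That of Aurkc was lost with plain eBayes (0.0533), with only the 6 arrays compared (0.0519) and without Dgcr8 knockout replicate 1 (0.0728) or 2 (0.0553). That of Ppp2r5c was lost with median centring (0.0568), the mean of probe sets (0.187), plain eBayes (0.0611) or only the 6 arrays (0.0730), and without Dicer knockout replicate 2 (0.0539) or Dgcr8 knockout replicate 2 (0.0616) or 3 (0.0812). Between Dgcr8 knockout and wild-type oocytes 0 of the 19 passed the limma test, where 0.0231% of all genes did. An unadjusted p under 0.05 was reached by 0 of the 19, and by 2.64% of all genes.

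**Figure D4:**
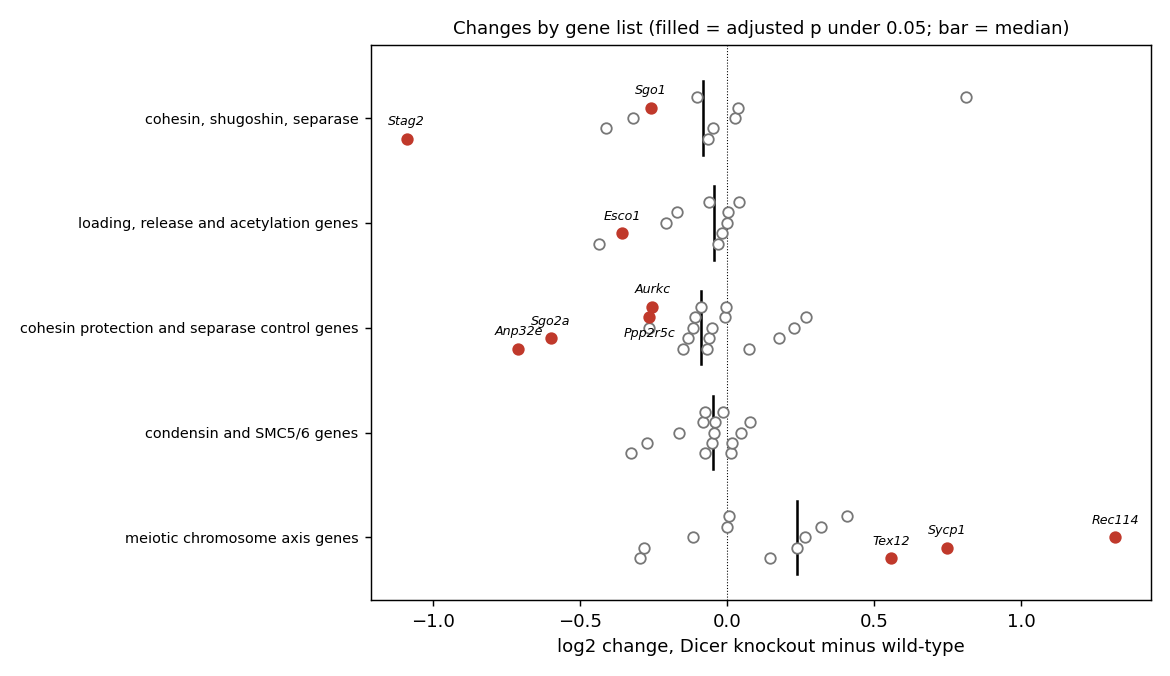
log2 change in Dicer knockout minus wild-type oocytes for each tested gene of the 5 lists, with genes at an adjusted p under 0.05 filled and named and the list's median as a bar (vertical position within a list only spreads the points). The named genes lie left of 0 in the first 3 lists and right of 0 in the list of chromosome axis genes.

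Of 10 genes tied to the loading, release, acetylation or placement of cohesin, 1 fell in Dicer knockout against wild-type oocytes and 9 did not pass (median log2 change -0.04). This share was near the 6.47% of all genes called lower. Esco1, an acetyltransferase that locks the ring on DNA, averaged 10.07 ± 0.22 in Dicer knockout, 10.40 ± 0.08 in Dgcr8 knockout and 10.42 ± 0.05 in wild-type oocytes (SD, n = 3 each), a log2 change of -0.35 against wild-type (limma adjusted p 0.0414). The call was lost without any one of 7 of the 9 arrays (adjusted p 0.0569 to 0.141; it held without Dicer knockout replicate 2 or 3). It was also lost with arrays centred on their median (0.0712), with the mean of probe sets (0.0673), with all probe sets tested (0.0676), with plain eBayes (0.0674) and with only the 6 arrays compared (0.0987). Pds5a, a release and maintenance factor, and Ctcf, which stops cohesin on chromatin, had log2 changes of -0.43 and -0.21 that did not pass against wild-type (0.0622 and 0.0550). Against Dgcr8 knockout oocytes 2 of the 10 were called, both lower, where 7.92% of all genes were called lower. These were Pds5a and Ctcf, with log2 changes of -0.46 (limma adjusted p 0.0427) and -0.22 (0.0362). Each of these calls was lost under several settings, among them median centring (0.0725 and 0.0740).

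Condensin and the Smc5-Smc6 complex are rings related to cohesin that compact chromosomes and serve DNA repair. Of their 14 genes, 0 passed the limma test in Dicer knockout against wild-type oocytes, where 11.3% of all genes were called. An unadjusted p under 0.05 was reached by 1 of the 14, and by 23.7% of all genes. The median log2 change was -0.05, and the changes lay between -0.32 and 0.08. Against Dgcr8 knockout oocytes 0 passed as well, where 13.4% of all genes were called. There 3 of the 14 had an unadjusted p under 0.05, as did 4530 of all 17324 genes tested.

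Genes of meiotic prophase had calls in the other direction. Most of them belong to the chromosome axis or the synaptonemal complex, on which cohesin is laid out in the fetal ovary. Of 13 measured, 3 rose in Dicer knockout against wild-type oocytes, 0 fell and 10 did not pass, where 4.87% of all genes were called higher. As the list was chosen with earlier results of these data known, a share above that of all genes is no test of it. The median log2 change was 0.24. The list is wider than the axis and also holds Meioc and Rad21l, neither of which was called. Rec114, a factor for meiotic DNA breaks, had signals of 8.19, 7.68 and 7.39 in Dicer knockout, 5.43, 6.13 and 6.84 in Dgcr8 knockout and 6.68, 6.52 and 6.09 in wild-type oocytes. The Dicer knockout arrays lay above all others, though the Dgcr8 knockout arrays were widely spread, and Rec114 rose by 1.32 against wild-type (log2, SE 0.33; limma adjusted p 0.0275). Sycp1, the transverse filament gene of the synaptonemal complex, rose by 0.75 (log2, SE 0.17; adjusted p 0.0208), and Tex12, of its central element, by 0.56 (log2, SE 0.14; adjusted p 0.0319).

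Against Dgcr8 knockout oocytes these 3 genes passed by larger log2 changes, 1.62 for Rec114, 0.94 for Sycp1 and 1.04 for Tex12 (limma adjusted p 0.00929, 0.00616 and 0.00115). Sycp3, a lateral element gene, also passed there (0.55, adjusted p 0.0326) but not against wild-type (0.32, 0.216). With Sycp3, 4 of the 13 genes were called higher there and 0 lower, where 5.48% and 7.92% of all genes were. That Sycp3 call held in only 3 of the 9 fits with an array left out (adjusted p 0.0142 to 0.118), and was lost with the replicate block (0.0552), median centring (0.0629), all probe sets tested (0.0535) and only the 6 arrays compared (0.0801). The 3 calls against wild-type were not stable: 1 was left with the replicate block and without Dicer knockout replicate 1 or wild-type replicate 1 or 2, and 0 without Dicer knockout replicate 2 or wild-type replicate 3. Tex12 had a log2 change of -0.48 in Dgcr8 knockout against wild-type oocytes that did not pass (limma adjusted p 1.0).

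Over the 9 arrays, the 5 tested genes whose centred profile was most like that of Stag2, by the root mean square difference of the log2 values, were Plxna2, a semaphorin receptor (0.17), Lig4, the ligase of DNA end joining (0.18), Gas6, a ligand of TAM receptors (0.18), the tetraspanin gene Tspan5 (0.18) and Nedd4l, a ubiquitin ligase (0.19). Their log2 changes in Dicer knockout against wild-type oocytes lay between -1.04 for Tspan5 and -0.84 for Gas6. As these genes were picked for their likeness to Stag2 over the same arrays, such falls follow from the choice.

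**Figure D5:**
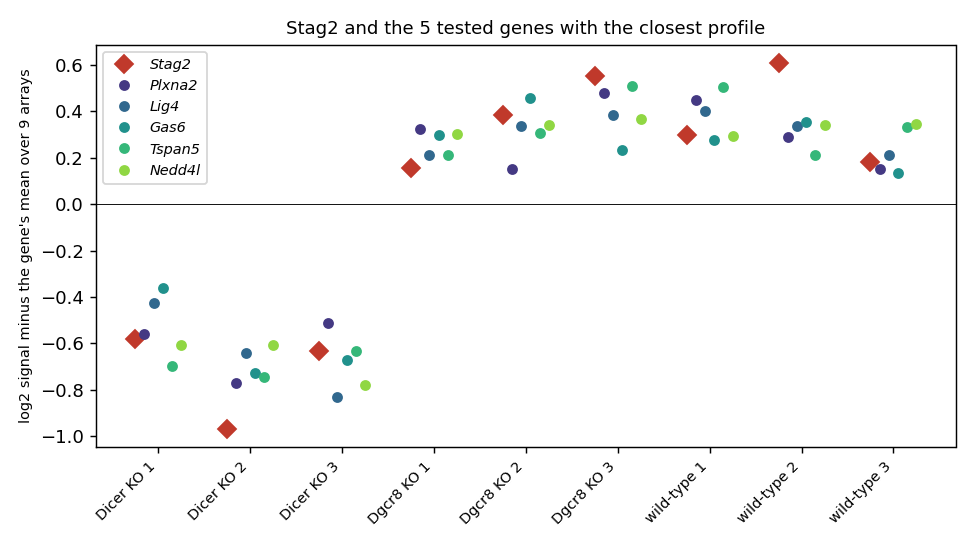
log2 signal minus the gene's own mean over the 9 arrays, for Stag2 (diamonds) and the 5 genes with the closest profile (circles), by array. All 6 genes are below 0 in the 3 Dicer knockout arrays and above 0 in the 3 Dgcr8 knockout and 3 wild-type arrays. The 5 genes were picked for likeness to Stag2 over these arrays, so the shared pattern follows from the choice.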

How the data were processed

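The deposited values are log2 signals, 1 per probe set and array, which the authors made with GCRMA per the submitters' processing notes (background correction from probe sequence, normalization between arrays and summary over probes; version and settings not given in the sources used here). Single-gene probe sets numbered 21789 of 35557; 1621 named several genes and 12147 were unnamed here. The probe set with the highest mean represented each of 19938 genes, and a gene was tested if its signal reached 4 in 3 or more of the 9 arrays. One linear model over all arrays was fitted in limma 3.58.1 (R 4.3.3, statmod 1.5.0), with variances moderated by a robust eBayes with an intensity trend. Tests were two-sided, and the procedure was tested on simulated data. The number of arrays limits the precision. All 10 genes are described; of each related list the called members are named, at most 4, with Sgo2a and Pttg1 added. Members, lists and rules were chosen with earlier results of these data known. Of the 4 lists, 1 gene of 20 (Ccnb1) and 1 of 14 (Syce3) were not measured. Alternatives changed the filter, scaling, probe sets, eBayes settings, arrays and replicate block.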

Additional observations from a re-analysis of the deposited data

How the results depend on the processing

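The Stag2 call against wild-type held under every setting tried (log2 change -1.11 to -1.09 with all arrays). In Dicer knockout against wild-type oocytes, the count of cohesin and shugoshin genes called was 2, but 4 with a floor of 6, 1 with arrays centred on their median, and 1 to 3 with an array left out. The loading and release list had 1 call there, but 3 with a floor of 6 or after quantile normalization, 2 with the replicate block, 0 with median centring, the mean of probe sets, all probe sets, plain eBayes or only the 6 arrays compared, and 0 to 1 with an array left out. Without 1 array the protection list had 3 to 5 calls, the axis list 0 to 3 (1 with the replicate block) and the condensin list 0 to 2 (1 with a floor of 6), and all genes 1238 to 1959, lowest without wild-type replicate 3. In Dicer knockout against Dgcr8 knockout oocytes, the 3 member calls became 5 after quantile normalization and 2 to 4 without an array. The loading list went from 2 to 4 after quantile normalization, 1 with plain eBayes, 0 with median centring, all probe sets or only the 6 arrays, and 0 to 2 without an array. The protection list went from 6 to 3 with median centring, 2 with only the 6 arrays and 3 to 6 without an array, and the condensin list from 0 to 1 with a floor of 6 or array weights, 2 after quantile normalization and 0 to 2 without an array. The axis list had 3 to 4 calls and all genes 1511 to 2248 without an array, lowest without Dgcr8 knockout replicate 1. Between Dgcr8 knockout and wild-type oocytes the 4 genes called overall became 2 with only the 6 arrays and 2 to 4 without an array.

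Signs turned only for changes near 0: Espl1 in the Dicer knockout after quantile normalization (-0.0056), Pttg1 there (-0.0160 to 0.0060 without an array), and Stag2 in Dgcr8 knockout oocytes with array weights (-0.0899) or an array left out (-0.0908 to 0.13). Same-numbered replicates did not deviate together (r of -0.235 to 0.112 between genotypes), so the numbers were not taken as pairs; with the replicate block 2 members were called against wild-type and 1797 genes overall. The causes of these differences were not tested. With 3 arrays a genotype, changes inside the 95% intervals could not be seen, and the repeated value of Rec8 left its RNA unmeasured.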
